A study of Mus musculus with 96 samples.

Results

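The 9 immediate early genes Fos, Fosb, Jun, Junb, Egr1, Ier2, Nr4a1, Dusp1 and Zfp36 were followed in islets and liver of 48 male C57BL/6N mice. Their rows were found by symbol, all 9 of them among the 21990 genes of the deposited table, of which 20155 have values. The mice were bought as young animals and fed a high-fat diet (HFD, 60% fat) or a chow diet (CD, 13.5% fat). At each of weeks 4, 8, 12, 16, 20 and 24 of feeding, 4 mice per diet gave 1 islet and 1 liver library each, so that 96 libraries fall into 24 groups of 4. The 2 tissues of a mouse carry the same number in the labels. Expression is given as FPKM, fragments per kilobase of transcript scaled to the mapped fragments of a library.

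Immediate early genes are transcribed within minutes of a stimulus from factors that already lie in the cell, and their short-lived mRNAs are lost soon afterwards. Calcium, cyclic AMP, growth factors and stress reach them through the kinases ERK, JNK and p38 and the transcription factors SRF, the ELK proteins and CREB. In beta cells, glucose and depolarisation are well-known inducers. In liver, the same genes respond to partial hepatectomy, fasting hormones, cytokines and the handling of the tissue. Fos, Fosb, Jun and Junb encode subunits of the AP-1 transcription factor, Egr1 a zinc finger transcription factor and Nr4a1 the orphan nuclear receptor Nur77. Ier2 encodes a nuclear protein that is induced with them. Dusp1 encodes a phosphatase that switches off MAP kinases, and Zfp36 encodes tristetraprolin, which promotes decay of AU-rich mRNAs.

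In GRCm38 coordinates, as the table gives them, Fos (Entrez gene 14281) lies on the plus strand of chromosome 12 from 85473901 to 85477269. Jun (16476) lies on the minus strand of chromosome 4 from 95049036 to 95052222. Chromosome 7 holds Fosb (14282), from 19302696 to 19310226, and Zfp36 (22695), from 28376784 to 28379228, both on the minus strand. Chromosome 8 holds Junb (16477), from 84976909 to 84978748, and Ier2 (15936), from 84661331 to 84662852, again on the minus strand. Nr4a1 (15370) is on chromosome 15 from 101252918 to 101274795 and Dusp1 (19252) on chromosome 17 from 26505591 to 26508472, and the table lists Egr1 as Entrez gene 13653.

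Because these transcripts moved together from mouse to mouse, the promoters of 7 of them were read from RefSeq (GRCm38.p6, 250 bases before to 50 after the start site). Egr1 and Ier2 had no entry, and bases outside this window were not searched. Both strands were searched for TGACG (the core of a CREB site), the full site TGACGTCA, TATAAA, the CArG box bound by SRF, the AP-1 site TGANTCA and the EGR site GCGGGGGCG. TGACG, which the full CREB site contains, was present in 5 of the 7 promoters, those of Fos, Fosb, Junb, Nr4a1 and Dusp1, and in 20.8% of all 32851 promoters of that length. The full site was present in Dusp1 alone among the 7 and in 1.79% of all promoters. The EGR site was found in Fosb, Zfp36 and Nr4a1 and in 2.91% of all promoters, the CArG box in Zfp36 and in 1.63%, and TATAAA in Fos and Junb and in 13.6%. No member promoter held TGANTCA, which 7.81% of all promoters hold. The stretches of 100 bases that carry most of these matches are printed 5′ to 3′ along the gene, with each match on either strand in capitals. They are descriptions of letters in the window and not of bound sites.
Fos (chr12:85473790-85473889, plus strand): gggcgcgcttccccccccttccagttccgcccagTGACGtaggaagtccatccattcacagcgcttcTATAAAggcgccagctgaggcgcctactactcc
Fosb (chr7:19310046-19310145, minus strand): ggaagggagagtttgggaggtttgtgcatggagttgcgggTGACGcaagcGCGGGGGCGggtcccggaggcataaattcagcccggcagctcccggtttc
Junb (chr8:84978769-84978868, minus strand): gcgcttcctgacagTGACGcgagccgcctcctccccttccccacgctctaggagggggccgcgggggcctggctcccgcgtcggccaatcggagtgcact
Nr4a1 (chr15:101266746-101266845, plus strand): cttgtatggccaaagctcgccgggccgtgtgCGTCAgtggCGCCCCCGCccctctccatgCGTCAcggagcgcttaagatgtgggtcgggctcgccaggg
Dusp1 (chr17:26508573-26508672, minus strand): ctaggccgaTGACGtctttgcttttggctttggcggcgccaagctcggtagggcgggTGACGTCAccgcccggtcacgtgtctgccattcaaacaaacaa
Zfp36 (chr7:28379239-28379338, minus strand): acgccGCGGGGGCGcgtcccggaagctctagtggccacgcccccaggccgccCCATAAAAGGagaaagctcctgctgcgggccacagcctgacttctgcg
In Fos the core CREB match began 66 bases and the TATA match 33 bases before the start site, and in Nr4a1 the nearest core CREB match, read on the other strand, began 40 bases before it. The TATAAA of Junb covered bases 1 to 6 from the start site, not before it, and lies outside the printed stretch.

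The libraries matched their labelled tissues. Ins2 was between 394273 and 707231 FPKM in islets and Alb between 16734 and 46057 FPKM in liver. Liver libraries held between 0 and 0.574% of the Ins2 level of the same mouse's islets (median 0.00164%), and the same share of the islet value would make up at most 5.47% of a liver value of any of the 9 genes. No 2 libraries were identical, and libraries of one group correlated at 0.985 to 0.998 over all genes. Read counts are not in the table, so the sampling error of single values is unknown. In whole tissue, a change in the number of cells of a type cannot be told apart from a change in RNA per cell.

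In islets all 9 genes were detected in all 48 libraries, and Junb and Fos were the highest. The median over the 48 islet libraries was 17.5 FPKM for Junb, 17.0 for Fos, 13.2 for Jun, 12.0 for Egr1, 11.6 for Dusp1 and 11.6 for Zfp36. It was 6.455 FPKM for Nr4a1, 6.14 for Ier2 and 0.465 for Fosb. In liver the order was another one, with Zfp36 first at 67.1 FPKM, then Junb at 22.3, Ier2 at 19.7, Dusp1 at 17.7, Jun at 11.2 and Egr1 at 8.295. Fos at 1.66, Nr4a1 at 0.95 and Fosb at 0.13 FPKM were the lowest in liver. The ranges over libraries of every 2 neighbours in these orders overlapped, in both tissues.

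Islets of week 4 held far more of the AP-1 and Egr1 transcripts than islets of any later week, on both diets. Islet Fos was 101.88, 97.95, 98.84 and 85.18 FPKM in the 4 CD mice of week 4, and 143.88, 99.94, 38.62 and 145.9 in the 4 HFD mice. The lowest of these 8 values belongs to mouse HFD114, and 7 of the 8 lay above all 40 islet libraries of later weeks. In order of the 6 weeks, the median of 8 mice was 99.39, 16.69, 4.99, 2.05, 38.7 and 24.38 FPKM. Fos thus fell from week 4 to its lowest level at week 16 and was higher again at weeks 20 and 24. From the highest to the lowest week the medians differ 48.5-fold for Fos.

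Fosb in islets was 9.5, 12.21, 14.55 and 9.74 FPKM in CD and 11.25, 11.29, 2.72 and 11.07 in HFD mice at week 4. At week 12 it was between 0.09 and 0.46 FPKM in all 8 mice and at week 16 between 0.03 and 0.33, without overlap with week 4. At week 20 it spread from 0.45 to 7.94 FPKM, with both diets across that range. Jun had a median of 47.8 FPKM at week 4 and of 5.005 at week 16 in islets, and Junb of 47.3 and 7.235. Egr1 fell from 49.3 to 5.04 FPKM between the same weeks and Ier2 from 14.2 to 3.915. In each of Jun, Junb and Egr1, 7 of 8 mice of week 4 were above all 40 later libraries, with HFD114 the one below, and in Ier2 6 of 8. The feedback genes were less set apart. Dusp1 had medians of 28.0 FPKM at week 4 and 7.71 at week 16, and 2 of 8 mice of week 4 exceeded all later ones. Zfp36 had medians of 18.9 and 7.895 FPKM in these weeks, and 1 mouse did. Nr4a1 differed from the rest in that its highest median, 9.61 FPKM, fell at week 8, and its week 4 values ran from 5.01 to 29.05 FPKM.

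The level differed between weeks in islets for 9 of 9 genes (limma F test over the 6 weeks, adjusted p from 8.1e-13 for Jun to 0.016 for Nr4a1). Of all 11933 islet genes tested, 92.1% differed between weeks, so the count does not set the 9 genes apart. Without week 4, an alternative chosen after seeing the data, 9 of 9 were again called. Fosb reached 1 FPKM in 19 islet libraries. It was at least 2.72 FPKM at week 4 and at most 0.46 at week 12 and 0.33 at week 16. It thus entered these tests through the weeks in which it is high, and its call is not independent of that selection. With no limit on low values and all weeks kept, 9 of 9 were also called. Week, age of the mice and whatever else went with one collection cannot be told apart in this design. Some marker sums also differed between week 4 and later weeks. The summed FPKM of 5 stromal markers, all 5 with a median of at least 1 FPKM in islets, was 21.3 to 56.7 at week 4 and 7.91 to 36.7 later. That of 2 alpha cell markers was 11757 to 15024 and 951 to 13230, and that of 2 delta cell markers 3779 to 4757 and 322 to 4182, with medians of 4076 and 2269. The week 4 ranges of 5 acinar markers (3126 to 15359) and 5 macrophage markers (64.85 to 90.4) lay within those of later weeks (2311 to 69702 and 37.45 to 112.8). Their part in the result was not tested.

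**Figure D1:**
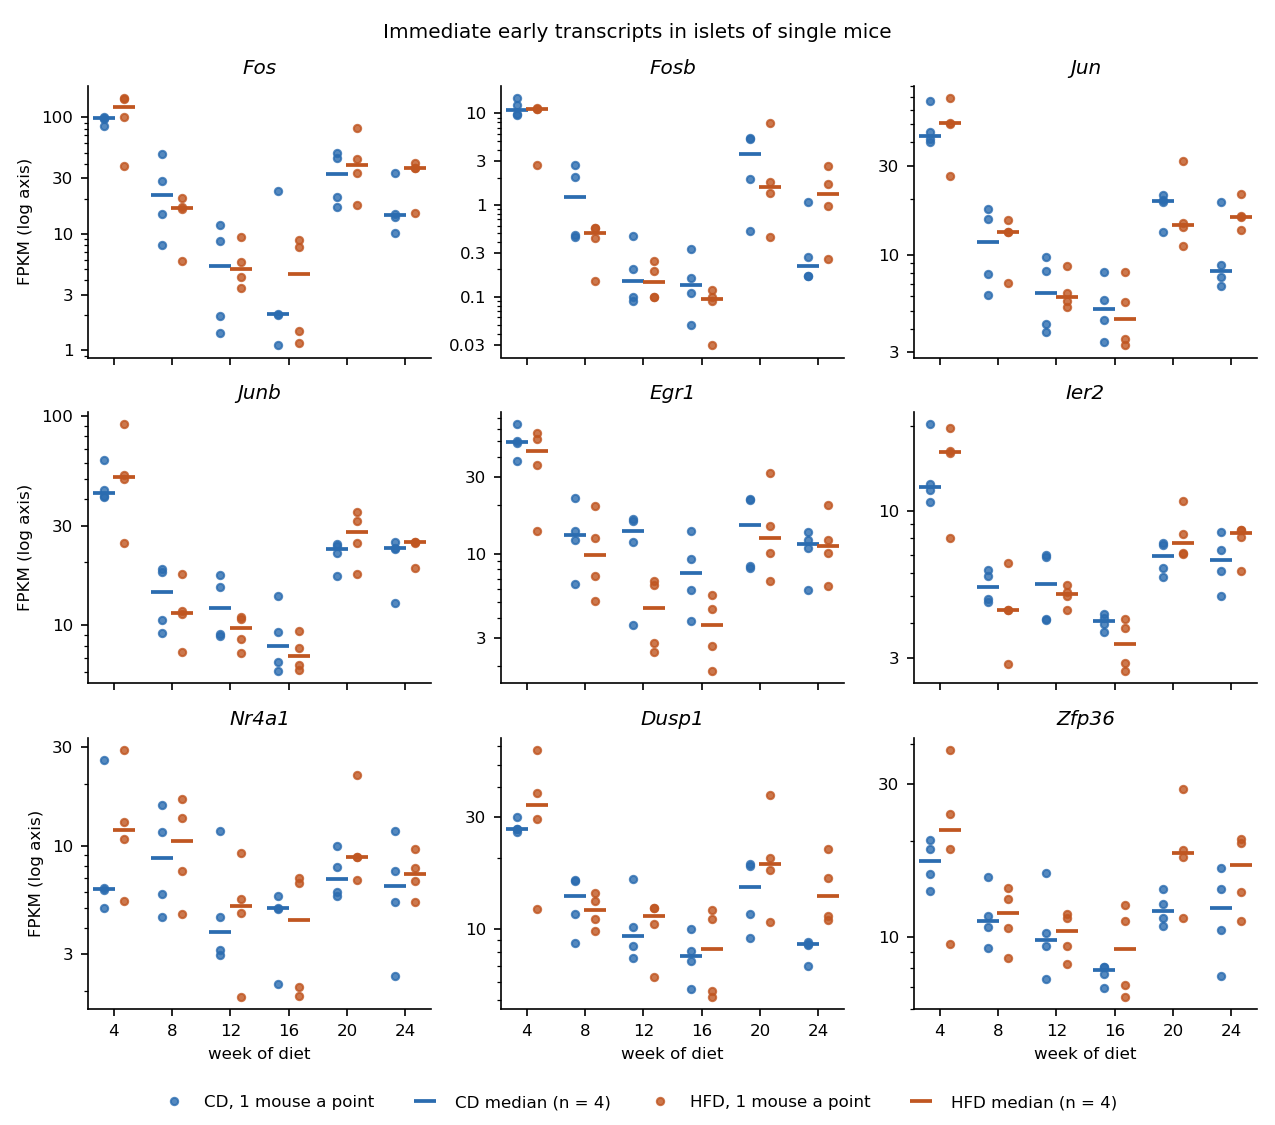
FPKM (log axis) of each of the 9 genes in islets against week of diet, with 1 point per mouse and bars at the median of 4 mice, CD in blue and HFD in orange. By the median of both diets together, all genes but Nr4a1 are highest at week 4 and lowest at week 16. The diets overlap in all weeks but for Dusp1 at week 24.

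In liver, single mice of one diet and week differed by orders of magnitude, and week 4 did not stand apart as a whole. Liver Fos at week 4 was 36.03, 0.12, 0.2 and 1.86 FPKM in CD mice and 0.22, 0.14, 0.16 and 90.91 in HFD mice. Thus CD101 and HFD118 were high and 5 of the 8 mice lay at 0.22 FPKM or below. At week 8, Fos was 20.24, 0.4, 0.22 and 0.86 FPKM in CD and 11.73, 12.14, 0.46 and 0.53 in HFD mice, so that CD203, HFD211 and HFD212 were high. The ratio of the highest to the lowest mouse in a group reached 649 for Fos and exceeded 10 in 10 of its 12 liver groups.

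Jun and Egr1 followed the same mice. Liver Jun at week 4 was 55.57, 2.16, 2.7 and 8.21 FPKM in CD and 3.24, 2.29, 3.39 and 143.09 in HFD mice. Egr1 was 48.18, 2.14, 1.85 and 18.1 FPKM in CD and 1.04, 0.25, 0.46 and 145.97 in HFD mice in that week. CD101 and HFD118 again stand above the rest, and HFD118 also had the highest liver Ier2, at 109.8 FPKM, and Junb, at 120.16 FPKM, of all 48 mice. Fosb reached 10.09 FPKM in CD101 and 6.28 in HFD118 and was at most 2.98 FPKM in any other liver. The highest liver Egr1 of each later week was 117.74 FPKM in CD203 (week 8), 81.01 in HFD315 (week 12), 57.62 in HFD411 (week 16), 126.57 in HFD511 (week 20) and 51.6 in HFD611 (week 24).

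Between weeks, 1 of the 8 members tested in liver differed, Ier2 (adjusted p = 0.0074), while 77.6% of all 10407 liver genes did. Fosb reached 1 FPKM in fewer than the 12 of 48 livers required and was not tested there. Liver Ier2 had a median of 26.3 FPKM at week 4, where all 8 mice were above the median of later weeks, and of 12.97 at week 16. The adjusted p of the other 7 ran from 0.23 for Junb to 0.89 for Fos. Without week 4, the count in liver was 0 of 8, where 58.8% of all genes were called.

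**Figure D2:**
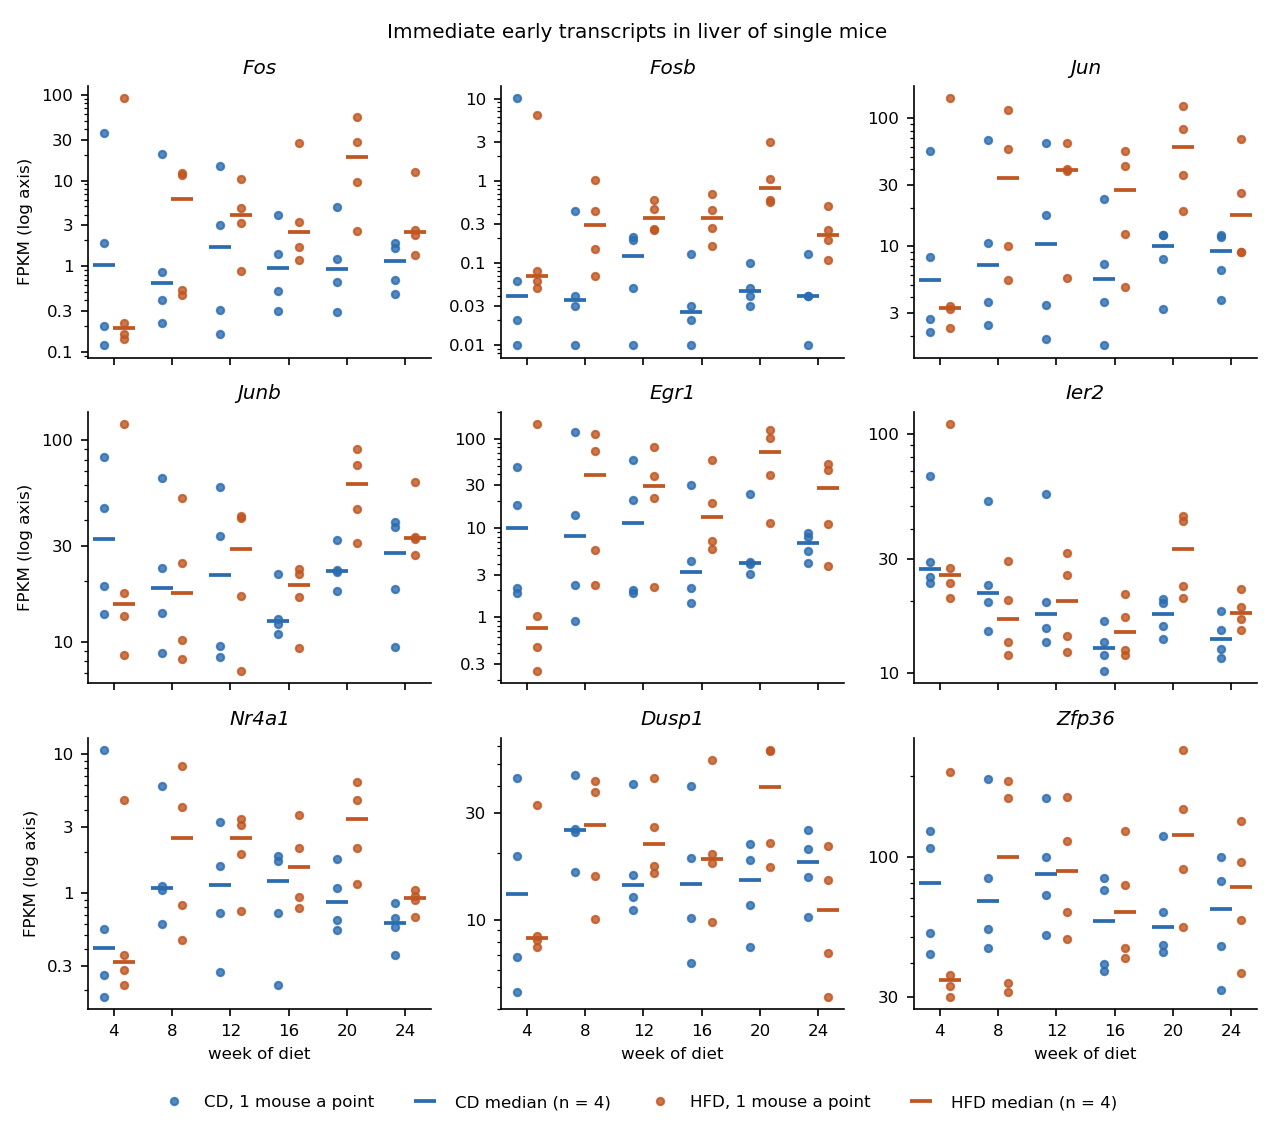
FPKM (log axis) of the 9 genes in liver against week of diet, with 1 point per mouse and bars at the median of 4 mice, CD in blue and HFD in orange. Single livers lie far above the others of their group, as HFD118 does with 90.91 FPKM of Fos at week 4, and at week 20 the 4 HFD mice are above the 4 CD mice for Fosb, Jun and Ier2.

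The spread between mice of one group was measured as the pooled SD of log2(FPKM + 1) after the 12 group means of a tissue were subtracted (36 degrees of freedom). In liver it was 2.01 for Egr1, 1.72 for Fos and 1.65 for Jun, against a median of 0.184 over the 10407 liver genes. These SDs exceeded those of 99.98%, 99.95% and 99.93% of liver genes. Junb (0.995), Zfp36 (0.896), Dusp1 (0.879), Nr4a1 (0.851), Fosb (0.686) and Ier2 (0.610) spread less, and the smallest of them still exceeded 97.9% of liver genes. In islets the SD was largest for Fos (0.933) and smallest for Ier2 (0.293), against a median of 0.134 over 11933 genes. All 9 SDs were smaller in islets than in liver. By diet, liver SDs were 1.84 in CD and 2.17 in HFD mice for Egr1 and 0.735 and 1.03 for Zfp36. They were smaller in HFD mice for Fosb (0.710 and 0.660) and Nr4a1 (0.867 and 0.836), and near each other for Dusp1 (0.874 and 0.884). The difference in spread between diets was not tested.

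**Figure D3:**
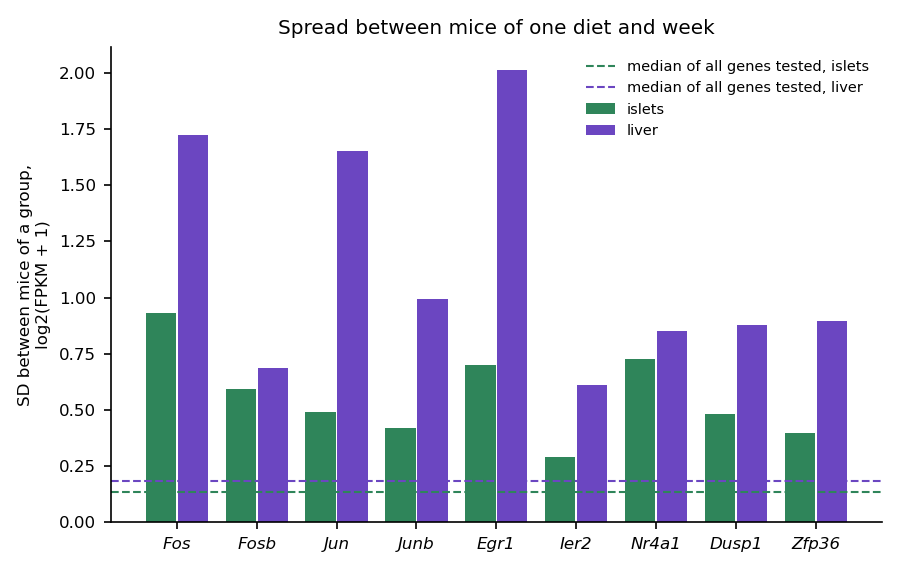
Bars give the SD of log2(FPKM + 1) between mice of one diet and week for each gene, in islets and liver, and dashed lines the median SD of all genes tested in that tissue. All 18 bars lie above the line of their tissue, and the liver bars of Egr1, Fos and Jun are the tallest.

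The 9 genes rose and fell together across mice. After group means were subtracted, the 36 pairs of members had a median Pearson correlation of 0.83 over the 48 liver libraries (range 0.520 to 0.934) and of 0.657 over the 48 islet libraries (0.249 to 0.828). Over all pairs of tested genes the median was 0.105 in liver and 0.188 in islets. The closest pair was Fos with Jun, at 0.934 in liver and 0.828 in islets, and the most distant one in islets was Fosb with Nr4a1. In liver all 36 pairs exceeded 0.5, as 7.78% of all gene pairs did, and in islets 32 pairs did, against 9.69%. These libraries share the dissection and depth of their sample, and no test was made.

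The genes most like the mean of the standardised members were taken from those reaching 1 FPKM in 12 or more of the 48 libraries. In liver the first 8 were Btg2 (r = 0.951), Jund (0.919), Rgs1 (0.886), Gdf15 (0.885), Atf3 (0.860), H3f3b (0.849), Cyr61 (0.807) and Trib1 (0.799), over 48 libraries. Btg2 is an antiproliferative gene, Jund the third Jun subunit, Gdf15 a stress-induced hormone and Atf3 a stress-induced transcription factor. Gdf15 ranged from 1.29 to 165.35 FPKM in liver. In islets the first 8 were Cyr61 (0.699), Rgs1 (0.649), Sik1 (0.643), Ppp1r15a (0.617), Txnip (0.605), Apold1 (0.581), Ddit4 (0.560) and Sgk1 (0.542). Cyr61 encodes a secreted matrix protein, Sik1 a kinase induced by cyclic AMP, and Txnip, which ranged from 73.6 to 1097 FPKM in islets, a glucose-responsive inhibitor of thioredoxin. The summed markers of 11 cell types correlated with the same mean at -0.198 to 0.329 in islets, highest for 2 alpha cell markers, and at -0.244 to 0.151 in liver. The lowest in liver was that of 4 lymphocyte markers, 0 of them with a median of at least 1 FPKM there. The highest in liver was that of 5 beta cell markers, 3 of them at that level. The part of these cell types was not tested.

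Most members were correlated between the islets and the liver of the same mouse, Nr4a1 with the highest coefficient. By the mean of the standardised members, 29 of 48 mice lay on the same side of their group mean in both tissues and 19 on opposite sides. At week 4 islet Nr4a1 was 25.93, 5.01, 6.27 and 6.13 FPKM in CD101, CD103, CD104 and CD106, and liver Nr4a1 of the same mice was 10.78, 0.26, 0.18 and 0.55. In HFD118 it was 29.05 FPKM in islets and 4.67 in liver, each the highest of its group. Over 48 mice with group means subtracted, Nr4a1 in the 2 tissues correlated with Pearson r = 0.76 and Spearman rho = 0.70 (permutation of mice within groups, two-sided, adjusted p = 9.0e-05 for both, the smallest these permutations can give after adjustment over 9 genes). It was 0.68 without the 2 mice farthest from the median in islets, CD101 and HFD118.

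Of the 9 genes, 7 correlated between islets and liver at an adjusted permutation p under 0.05. The permutation test was run on the 9 members alone, so the share of all genes that would pass is not known. Pearson r was 0.64 for Junb (rho = 0.59, adjusted permutation p = 0.0009), 0.58 for Zfp36 (rho = 0.53, p = 0.00092), 0.54 for Dusp1 (rho = 0.55, p = 0.0009) and 0.53 for Egr1 (rho = 0.55, p = 0.0032). For Ier2 it was 0.46 (rho = 0.37, adjusted permutation p = 0.032) and for Fos 0.37 (rho = 0.39, p = 0.025). Jun, with r = 0.32 and rho = 0.36, did not pass by Pearson (adjusted permutation p = 0.077) and passed by Spearman (0.042). Fosb had r = 0.16 (rho = 0.11, adjusted permutation p = 0.37). Without the 2 farthest mice, r was 0.55 for Junb, 0.51 for Zfp36, 0.50 for Dusp1, 0.49 for Egr1, 0.34 for Fos and 0.29 for Jun, and the relation of Ier2 (r = 0.36, adjusted permutation p = 0.056) no longer held. Fosb was at 0.0012. Within CD and HFD mice taken apart (24 each), r was 0.79 and 0.72 for Nr4a1, 0.58 and 0.70 for Junb, 0.57 and 0.59 for Zfp36, 0.47 and 0.60 for Dusp1, and 0.59 and 0.48 for Egr1. It was 0.62 and 0.34 for Ier2, 0.31 and 0.45 for Fos, 0.42 and 0.22 for Jun and -0.16 and 0.46 for Fosb. Over the 9448 genes measured in both tissues the median of r was 0.065, and Nr4a1 lay above 99.9% of them and Fosb above 68.6%. Junb lay above 99.6%, Zfp36 above 99.2%, Dusp1 above 98.7% and Egr1 above 98.5%. For Ier2 the share was 97.1%, for Fos 93.7% and for Jun 89.7%. Ier2 also missed the threshold under median ratio scaling (adjusted permutation p = 0.057).

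**Figure D4:**
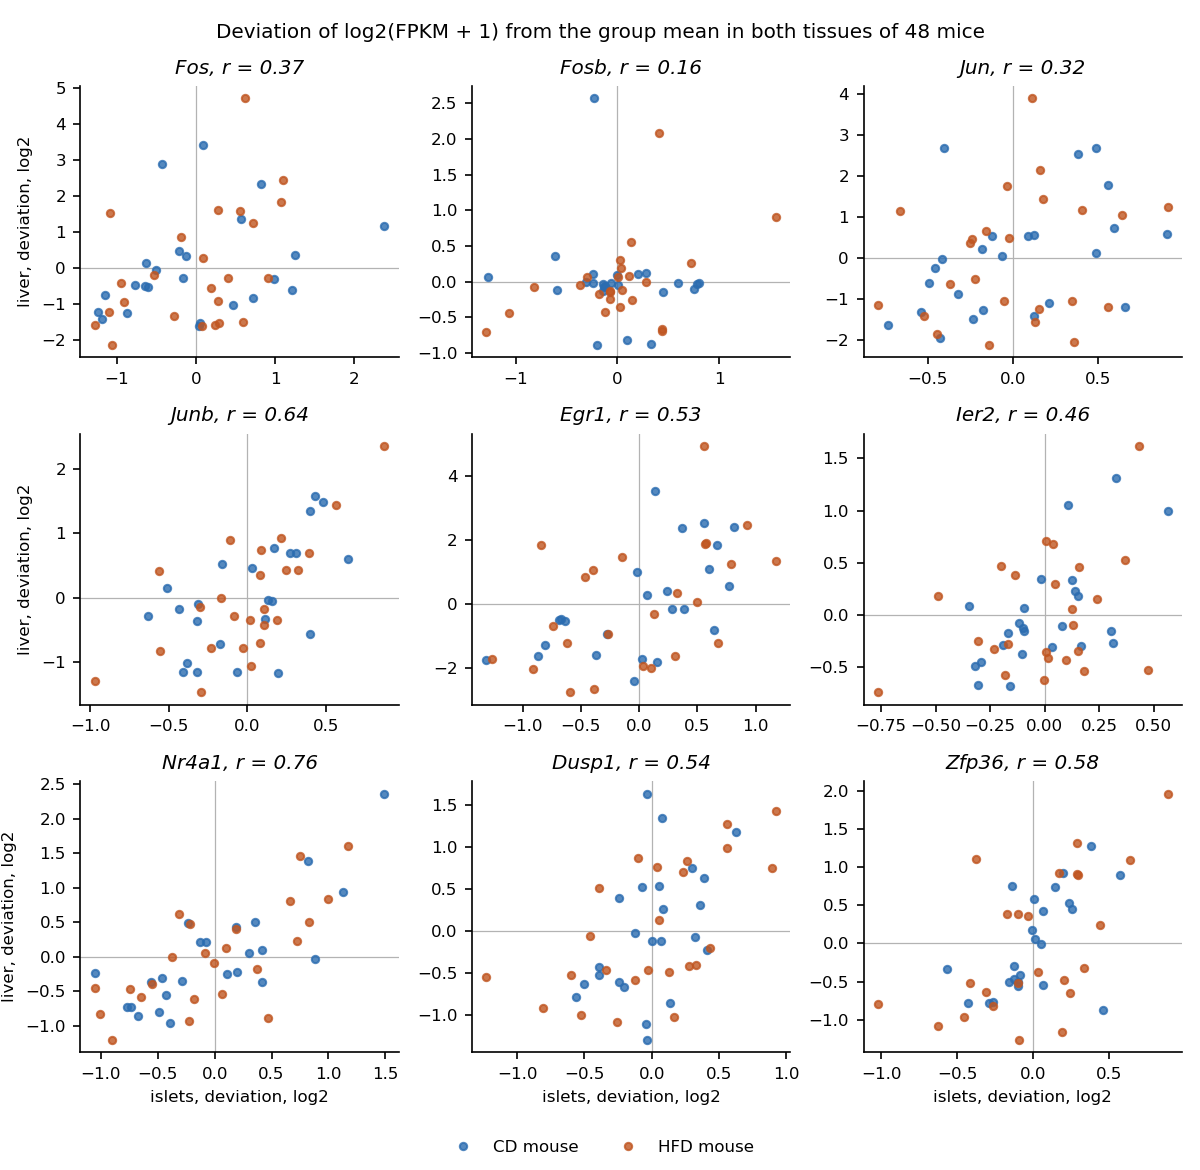
Each point is 1 mouse, with its deviation from the group mean of log2(FPKM + 1) in islets on the horizontal and in liver on the vertical axis, CD in blue and HFD in orange, and Pearson r over 48 mice above each panel. Nr4a1 (r = 0.76) and Junb (0.64) form the tightest clouds and Fosb (0.16) none.

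Within single weeks, HFD and CD mice were compared in each tissue by limma, at an adjusted p under 0.05 over all genes tested. No member passed in any of the 12 comparisons. In islets, 0 of 9 tested members passed at week 4 (background 0% of all genes), 0 of 8 at weeks 8 (5.27%), 12 (4.53%) and 16 (8.45%), 0 of 9 at week 20 (4.74%) and 0 of 8 at week 24 (8.30%). In liver it was 0 of 6 at week 4 (0.0506%), 0 of 7 at week 8 (7.49%), 0 of 8 at weeks 12 (10.6%), 16 (7.43%) and 20 (2.47%), and 0 of 7 at week 24 (0.837%). The members not tested were under 1 FPKM in 5 or more of the 8 libraries, mostly Fosb. At an unadjusted p under 0.05 there were 7 of 8 members in liver at week 20 (15.3% of all genes), 1 of 9 in islets at week 20 (Zfp36; 25.7% of all genes), 1 of 8 in islets at week 24 (Dusp1; 23.3% of all genes) and 0 in the other 9 comparisons. Without the variance trend and robust variances, Dusp1 in islets at week 24 and Jun in liver at week 20 passed. A diet difference that itself differed between weeks was called for no member, 0 of 9 in islets (4.02% of genes) and 0 of 8 in liver (1.44%), with 0 at an unadjusted p under 0.05 in either tissue by the limma F test.

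Week 20 in liver was the comparison with the most members at an unadjusted p under 0.05. As the members moved together between mice, these are not separate results. Liver Jun was 12.21, 12.33, 7.96 and 3.26 FPKM in CD (8.94 ± 4.30, SD, n = 4) and 124.08, 18.97, 83.06 and 36.11 in HFD mice (65.6 ± 47.5, SD, n = 4). All 4 HFD mice were above all 4 CD mice. Its log2 fold change was 2.54 (standard error 0.64, limma adjusted p = 0.095). Fosb (0.05, 0.04, 0.1 and 0.03 against 2.98, 0.56, 1.05 and 0.58 FPKM) and Ier2 (15.66, 20.35, 13.84 and 19.65 against 45.23, 20.57, 43.28 and 23.02) were separated in the same way. Of the 8 members tested there, 2 were so separated (Jun and Ier2), and 6.58% of all genes tested in liver at week 20 had all HFD above all CD mice. Fosb was not tested, and among all genes above 0 in any of these libraries the share was 5.81%. Egr1 was 3.92, 24.26, 4.14 and 3.05 FPKM in CD and 126.57, 11.3, 102.91 and 38.89 in HFD mice, where CD502 overlaps. Its log2 fold change was 2.82 (standard error 0.90, limma adjusted p = 0.18), that of Fos 2.78 (0.90, adjusted p = 0.18) and that of Junb 1.24 (0.33, adjusted p = 0.094). Junb passed without HFD516 (1.52, adjusted p = 0.031). Without HFD518, Jun (2.71, adjusted p = 0.0497) and Nr4a1 (1.38, adjusted p = 0.038) passed.

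In islets, Dusp1 at week 24 was 8.59, 7.01, 8.69 and 8.79 FPKM in CD and 22.0, 16.46, 10.91 and 11.34 in HFD mice. The groups did not overlap, as for 13.7% of the genes tested in islets of that week with HFD above CD, and the log2 fold change was 0.75 (standard error 0.21, limma adjusted p = 0.069). It passed without HFD611 (0.57, adjusted p = 0.014), HFD616 (0.88, adjusted p = 0.048) or HFD617 (0.87, adjusted p = 0.045). Jun in islets of week 24 was 6.81, 7.55, 19.07 and 8.84 FPKM in CD and 16.06, 15.85, 13.65 and 21.26 in HFD mice, with CD606 among the HFD values. Its log2 fold change of 0.71 (adjusted p = 0.26) became 1.01 (adjusted p = 0.00031) without CD606. Zfp36 in islets of week 20 had a log2 fold change of 0.54 (adjusted p = 0.18) and passed without HFD516 (0.75, adjusted p = 0.046). With Ins1 and Ins2 removed from each islet total, the median change of all genes at week 12 moved from 0.01 to 0.46 and 4 of 8 members passed as higher in HFD mice in that week, Jun (0.54), Dusp1 (0.46), Zfp36 (0.46) and Ier2 (0.38), where 69.8% of all genes passed. These 4 changes are near the median of all genes in that setting. At week 16 the same step moved the median of all genes from 0.01 to 0.34 and 68.1% of all genes passed, but no member did.

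Averaged over the 6 weeks, Jun was higher in the liver of HFD mice. The median of liver Jun was 7.64 FPKM in the 24 CD mice (1.69 to 67.47) and 31.01 FPKM in the 24 HFD mice (2.29 to 143.09), and the mean of HFD exceeded that of CD in 6 of 6 weeks. At week 4 the higher HFD mean rested on HFD118 (143.09 FPKM), and the HFD median of 3.315 FPKM lay below the CD median of 5.455. In their own week, 16 of 24 HFD mice were above the CD median. The mean log2 fold change was 1.36 (standard error 0.47, limma adjusted p = 0.019). Jun was the 1 of 8 members called in liver, where 42.0% of all genes passed and 35.1% passed as higher in HFD mice. The call held in all 53 alternatives, with changes of 1.14 to 1.61 and adjusted p up to 0.032. Marker sums moved with diet in liver as well. The median sum was 59.1 FPKM in CD (28.1 to 89.3) and 97.1 in HFD livers (49.4 to 164.6) for 5 stromal markers, 67.5 (37.4 to 123.6) and 105.5 (43.4 to 219.3) for 5 macrophage markers, and 27.8 (11.7 to 47.7) and 37.96 (22.4 to 62.6) for 5 endothelial markers. All 15 markers had a median of at least 1 FPKM in liver, and their part in the change of Jun was not tested.

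Egr1 and Fos had changes of like size in liver that did not pass. Egr1 had a median of 4.225 FPKM in CD and 20.3 in HFD livers and a mean log2 fold change of 1.13 (standard error 0.57, limma adjusted p = 0.11). For Fos the medians were 0.775 and 2.915 FPKM and the change was 1.06 (standard error 0.49, adjusted p = 0.080). Fos passed without CD101 (1.25, adjusted p = 0.029), CD203 (1.22, adjusted p = 0.038) or CD306 (1.19, adjusted p = 0.047), which are the CD mice with the highest liver Fos, and Nr4a1 passed without CD101 (0.51, adjusted p = 0.046). Without week 4, Fos (1.27, adjusted p = 0.022), Egr1 (1.55, adjusted p = 0.029) and Jun passed, where 41.2% of all genes did. The other members had mean changes of 0.14 to 0.38 in liver, with adjusted p from 0.21 to 0.68. All 8 were positive, with a median of 0.32, beside a median of 0.07 over all liver genes. The members moved together from mouse to mouse, so their signs are not separate observations.

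In islets, 0 of 9 members had a mean diet difference by limma, where 38.3% of all genes did, and 1 (Egr1) had an unadjusted p under 0.05, as 47.3% of all genes did. Egr1 had a median of 13.0 FPKM in CD and 8.695 FPKM in HFD islets, and 6 of 24 HFD mice were above the CD median of their week. Its change was -0.46 (standard error 0.20, limma adjusted p = 0.068), and it passed as lower in HFD mice when any of 6 mice was left out, for example -0.53 (adjusted p = 0.029) without CD307. Zfp36 (0.23, adjusted p = 0.11) passed without HFD114, at 0.28 (adjusted p = 0.026). The remaining 7 changes lay between -0.14 and 0.21. The median marker sums in CD and HFD islets were 11822 and 4229 FPKM for alpha cells and 3573 and 1433 FPKM for delta cells. For 5 beta cell markers, Ins1 and Ins2 among them, they were 662760 and 781880 FPKM. The part of these cell types was not tested. The mean diet difference was not computed with Ins1 and Ins2 out of the islet total.

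**Figure D5:**
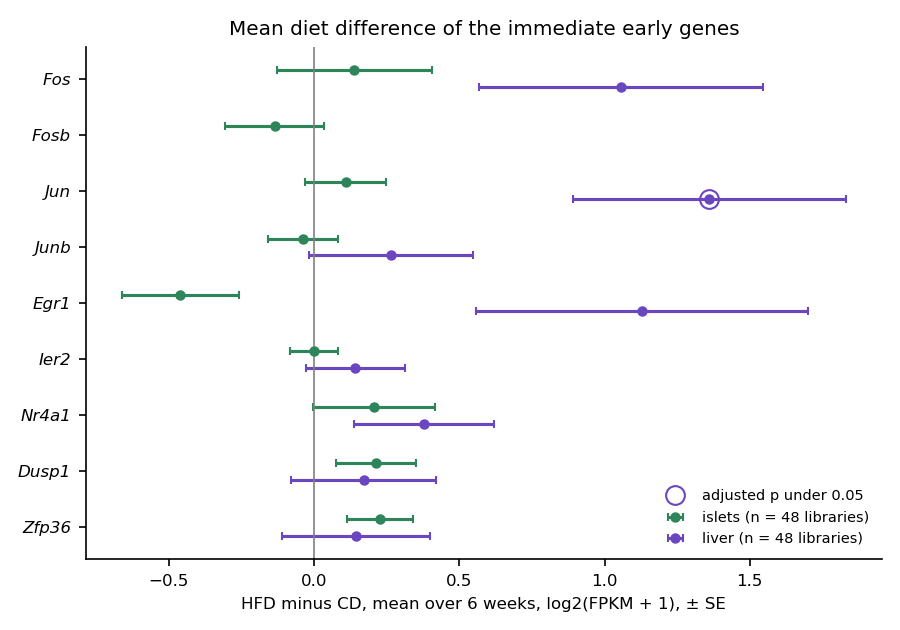
Mean difference of HFD minus CD over 6 weeks on the log2(FPKM + 1) scale, with its standard error, for each gene in islets (green) and liver (purple), and a ring where the adjusted p is under 0.05. The ring is at Jun in liver (1.36), and Egr1 lies at -0.46 in islets and 1.13 in liver. Fosb in liver was under the limit of 1 FPKM.

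The diet difference itself was compared between the tissues of the same mice. For Egr1 it was lower in islets than in liver by 1.59 on the log2 scale (-1.59, standard error 0.50, limma adjusted p = 0.0099), and for Jun by 1.25 (-1.25, standard error 0.45, adjusted p = 0.023). These 2 of 9 members passed, where 43.7% of all 12566 genes did. Both held in all 53 alternatives, which did not include the removal of Ins1 and Ins2 from the islet total. Fos (-0.92, adjusted p = 0.11) and Fosb (-0.49, adjusted p = 0.090) did not pass. Fos passed without CD101 (-1.10, adjusted p = 0.039) or CD203 (-1.10, adjusted p = 0.042). Fosb passed with a pseudocount of 0.1 (-1.58, adjusted p = 0.0043) and without CD505 (-0.57, adjusted p = 0.047). It reached 1 FPKM in 19 islet and 5 liver libraries, so it entered this test mainly through islets. Its median in liver was 0.13 FPKM, and a pseudocount of 0.1 gives more weight to such low values. The differences of the other 5 lay between -0.30 and 0.08.

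Between the tissues of the same mice, 7 of 9 members differed in level, where 96.8% of all genes did. Fos (2.28 higher in islets on the log2 scale, standard error 0.23, limma adjusted p = 1.1e-11), Nr4a1 (1.73, standard error 0.08) and Fosb (0.78, standard error 0.12) were higher in islets. Fosb reached 1 FPKM in 19 islet and 5 liver libraries, so that it passed the limit of 24 libraries mainly through islets, the tissue in which it is high. Zfp36 (-2.45, standard error 0.10, adjusted p = 3.4e-24), Ier2 (-1.53, standard error 0.08), Junb (-0.42, standard error 0.11) and Dusp1 (-0.41, standard error 0.11) were higher in liver. Jun (-0.11, adjusted p = 0.63) and Egr1 (0.06, adjusted p = 0.82) did not differ beyond their spread. Median ratio scaling moved the median of all genes from 0.63 to 0.05, and under it Jun (-0.72, adjusted p = 0.0029) and Egr1 (-0.53, adjusted p = 0.045) passed as lower in islets. Islets were released by collagenase digestion and picked by hand, whereas liver was frozen at once, so tissue and handling cannot be told apart.

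Of 45 other immediate early genes, 33 were tested in liver, and 20 of these had a mean diet difference over the weeks, where 42.0% of all genes did. Of the 20, 19 were higher and 1 lower in HFD mice, and 83.6% of the calls over all genes were higher. The median change was 0.29, beside 0.07 over all genes. The largest were Atf3 (1.22, limma adjusted p = 0.00039), Btg2 (1.13, adjusted p = 0.0071), Klf6 (0.81, adjusted p = 3.5e-07), Gadd45a (0.77, adjusted p = 9.2e-05), Maff (0.67, adjusted p = 0.00043) and Cyr61 (0.59, adjusted p = 0.031). Klf6 and Maff encode transcription factors, and Gadd45a a growth arrest protein. In single weeks of liver, by limma, 0 of 29 were called at week 4 (0.0506% of all genes), 0 of 31 at week 8 (7.49%), 2 of 32 at week 12 (10.6%), 6 of 32 at week 16 (7.43%), 4 of 33 at week 20 (2.47%) and 1 of 33 at week 24 (0.837%). At an unadjusted p under 0.05 they were 4, 4, 6, 16, 16 and 16 in the order of weeks, beside 12.9, 22.6, 30.3, 22.6, 15.3 and 15.6% of all genes. Atf3 was called at week 16 (1.70, adjusted p = 0.0016), week 20 (2.06, adjusted p = 0.046) and week 24 (1.40, adjusted p = 0.0021).

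In islets, 11 of 37 tested genes of that list had a mean diet difference, 6 higher and 5 lower in HFD mice, a share below the 38.3% of all genes. Cyr61 (0.58, adjusted p = 0.0050), Ctgf (0.39, adjusted p = 0.00088), Plk2 (0.37, adjusted p = 3.9e-05) and Gadd45g (0.37, adjusted p = 7.0e-06) were higher. The lung Krüppel-like factor gene Klf2 (-0.40, adjusted p = 1.8e-05) and Klf4 (-0.32, adjusted p = 0.00048) were lower. Of the 20 upstream kinases and transcription factors, 5 were called in islets (38.3% of all genes), all 5 lower in HFD mice, as 56.0% of all islet calls were, among them Mkl2 (-0.25), Elk4 (-0.24) and Mkl1 (-0.18). In liver 9 of 20 were called, near the 42.0% of all genes, 8 of them higher, led by the kinase genes Rps6ka1 (0.40, adjusted p = 6.2e-05) and Map2k1 (0.24, adjusted p = 1.1e-06) and by the SRF cofactor gene Mkl2 (0.27, adjusted p = 6.7e-05). The diet difference in islets minus that in liver was called for 20 of the 38 other immediate early genes tested, 16 of them negative, and for 12 of 20 regulators, 11 of them negative. Over all genes 43.7% were called, and 80.5% of these calls were negative.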

How the data were processed

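Poly(A) RNA of islets and liver was sequenced by the authors on a BGISEQ-500 instrument, and the authors deposited FPKM values with 2 decimals. The submitters' processing notes name HISAT2 2.0.4, Bowtie2 2.2.5, RSEM 1.1.12, DESeq2 and the build GRCm38.p5, without roles. The deposited comparisons of HFD with CD (ratios, p-values and q-values) were not used. The table holds no counts, so depth per library is unknown from it, and 0 columns of per-sample values were left out. Groups came from the mouse numbers and weeks in the labels.

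Values were transformed to log2(FPKM + 1), which understates the change of low genes. Tests were made by limma 3.58.1 (R 4.3.3) with variance trend and robust variances on genes reaching 1 FPKM in no fewer than 4 of 8 (one week), 12 of 48 (one tissue) or 24 of 96 libraries (both tissues, with the mouse as block), and p-values were adjusted by Benjamini-Hochberg. Leaving out 1 library, the limit was 3 of 7, and without week 4 it was 10 of 40. A gene was called at an adjusted p under 0.05. The tests were tested on simulated data. The pairing of tissues comes from the mouse number. Over 11650 genes, the deviations of the 2 libraries of a mouse correlated at a median of 0.128 (range -0.081 to 0.263), over 0.1 in 31 of 48 mice. Same-mouse correlations used 1e+05 permutations within groups (numpy 2.4.6, scipy 1.17.1, Python 3.11.15). The alternatives of the limma tests were a pseudocount of 0.1, no limit on low values, median ratio scaling, no trend and each mouse left out. For single weeks only, a minimum change of 1, insulin out of the islet total and all groups in one fit were added. For both tissues together, a fit without the mouse as block was added.

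All 9 members are named. Of the other lists, at most 6 called genes with the largest change are named per comparison, and 8 genes per tissue by likeness. The members and lists were chosen with earlier results of these data known. Within a tissue, the libraries come from separate mice, while the islet and liver libraries of a mouse are paired. The limma p-values set a difference against the spread between mice. Those of the same-mouse correlations come from permutation of mice within groups.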

Additional observations from a re-analysis of the deposited data

Results flagged for a closer look

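In groups of 4, a mouse was set apart where its gap to the nearest other, on the log2(FPKM + 1) scale, exceeded the share of the group's range that Dixon's 95% critical value for 4 values sets. Of the 216 groups of 9 genes, 22 cases were found, and chance gives about 1 in 20 groups, with genes that move together counted as if apart. In the liver of HFD mice at week 4, 8 cases were the same mouse, HFD118, with Fos at 90.91 FPKM (others 0.14 to 0.22), Fosb at 6.28 (0.05 to 0.08), Jun at 143.09 (2.29 to 3.39), Egr1 at 145.97 (0.25 to 1.04), Ier2 at 109.8 (20.54 to 27.41), Nr4a1 at 4.67 (0.22 to 0.36), Dusp1 at 32.81 (7.59 to 8.45) and Zfp36 at 207.93 (30.05 to 36.34). Mouse CD101 stood apart in liver at week 4 with Fosb at 10.09 FPKM (0.01 to 0.06) and Nr4a1 at 10.78 (0.18 to 0.55), and in islets with Nr4a1 at 25.93 (5.01 to 6.27). CD203 did so in liver at week 8 with Fos at 20.24 FPKM (0.22 to 0.86) and Fosb at 0.43 (0.01 to 0.04), and CD502 in liver at week 20 with Egr1 at 24.26 (3.05 to 4.14).

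In islets the high cases were CD403 at week 16 with Fos at 23.37 FPKM (1.11 to 2.07) and CD606 at week 24 with Fosb at 1.09 (0.17 to 0.27). The low ones were HFD114 at week 4 with Fosb at 2.72 FPKM (11.07 to 11.29), HFD616 at week 24 with Fos at 15.19 (36.94 to 40.44) and Junb at 18.71 (24.71 to 25.09), CD605 at week 24 with Junb at 12.85 (23.14 to 24.98) and Dusp1 at 7.01 (8.59 to 8.79), and CD407 at week 16 with Nr4a1 at 2.15 (4.98 to 5.73).

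The difference of HFD and CD differed between the tissues by a test of the difference itself for Egr1 (-1.59 in islets minus liver) and Jun (-1.25).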

How the results depend on the processing

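Of 2392 member values with 1 mouse left out, 22 passed the threshold only then, and 0 were lost or reversed. Among members called, the count with 1 mouse left out ranged from 0 to 1 for islets at weeks 20 and 24 and for the islet mean, from 0 to 2 for liver at week 20, from 1 to 3 for the liver mean, from 6 to 7 for islets minus liver (Fosb fell under the limit on low values) and from 2 to 3 for the diet difference between tissues. Without CD207, CD405, HFD212, HFD511 or HFD614, islet Egr1 had a mean diet difference of -0.50 to -0.53. With insulin out of the islet total, 4 members were called at week 12, with 69.8% of all genes, where Ier2 (0.38), Dusp1 (0.46) and Zfp36 (0.46) changed sign. At week 16 in that setting, 68.1% of all genes and 0 members were called. Without trend and robust variances, 1 member was called in islets at week 24 and 1 in liver at week 20. Without week 4, chosen after seeing the data, 3 members had a mean diet difference in liver (41.2% of all genes) and 0 differed between weeks there (58.8% of all genes). Median ratio scaling changed the sign of Egr1 in islets minus liver (-0.53). Fits without the mouse as block changed no call, with 7 members called between tissues and Egr1 at -1.59 (adjusted p = 0.030) for the diet difference. The cause of these changes was not tested, except that insulin left out shifts all islet genes of a library together. Precision is limited by 4 mice a group and by values of 2 decimals without counts.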

Other observations

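Fosb in liver was mostly under 1 FPKM and so was not tested for diet. All 24 HFD mice were above the CD median of their own week, a count that was not set beside that of all genes. At week 4 the lowest HFD value was 0.05 FPKM beside a CD median of 0.04, and the mean was higher in CD (2.545) than in HFD mice (1.6175). At week 12 it was 0.21, 0.19, 0.05 and 0.01 FPKM in CD and 0.58, 0.45, 0.25 and 0.26 in HFD mice, and at week 16 it was 0.03, 0.13, 0.01 and 0.02 in CD and 0.69, 0.44, 0.16 and 0.27 in HFD mice. The 4 HFD mice were above the 4 CD mice at weeks 12, 16 and 20, as were 11.3, 10.2 and 5.81% of all genes above 0 in at least 1 liver library of these weeks. Without the limit on low values, the log2 fold change of Fosb was 0.31, 0.40 and 1.01 in these weeks (limma adjusted p = 0.085, 0.065 and 0.13), and its mean over 6 weeks was 0.36 (adjusted p = 0.17). With 2 decimals, the lowest of these values have 1 significant digit.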
